A study of Mus musculus with 4 samples.

Results

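Pro-B and pre-B cells, the precursors of B lymphocytes, were described among the CD45+ (leukocyte) cells sorted from mouse spinal cord. A cell was counted as a member when its barcode had at least 600 detected genes, at most 10% mitochondrial UMIs (unique molecular identifiers, the count of captured transcripts), at least 1 UMI of Cd79a, at least 1 UMI of 2 or more of the 6 precursor genes Vpreb1, Vpreb2, Igll1, Dntt, Rag1 and Rag2, and no UMI of Cd3e, Csf1r or Csf3r. By this rule 269 cells were members in the 2 libraries described here, out of 16615 barcodes past the filters on genes and mitochondrial share in these and 28346 in all 4 libraries, which held 31660 barcodes as deposited. Members with at least 3 of the 5 genes Mki67, Top2a, Cenpf, Pclaf and Hist1h1b were called cycling and the others resting. The members were thus chosen by their measured UMIs of these genes, whose levels are given as a description.

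Each of the 4 libraries was a single group: sham-operated cords dissociated by the standard protocol, sham-operated cords dissociated with actinomycin D (the ActD-based protocol, in which transcription is blocked during cell isolation), injured cords at 3 dpi (days post injury) and injured cords at 14 dpi, both by the ActD-based protocol. All mice were C57BL/6, 3 months old and of both sexes, the injury was a mid-thoracic contusion and sham mice had the laminectomy alone. Cells of both sexes were found in each library. Male and female mice were divided among the study's groups, and how many entered each library was not given in the sources used here. The standard sham library held 129 members (cells from 5736 barcodes past the filters), the 14 dpi library 140 (of 10879), the ActD-based sham library 8 (of 2203) and the 3 dpi library none (of 9528). The description below therefore uses the standard sham and 14 dpi libraries, which hold 60412094 and 129935880 UMIs in all. These libraries differ in injury, in protocol, in the software release and in the sex of the members, and with 1 library per group no test between conditions could be made. Comparisons within a library were made in each library separately, so that the second library shows whether a difference recurred. They set cycling against resting members, and resting members against B cells with an Ighd UMI (Ighd-positive B cells).

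B cell precursors rearrange their immunoglobulin genes in steps. The recombinase made of RAG1 and RAG2 cuts the DNA, terminal transferase (Dntt) adds bases at the heavy chain joints in pro-B cells, and the products of Vpreb1, Vpreb2 and Igll1 form the surrogate light chain that pairs with a new heavy chain in the pre-B cell receptor. Large pre-B cells then divide, and small pre-B cells rearrange the light chain genes before they leave as immature B cells. In the adult mouse these stages are known chiefly from bone marrow.

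On GRCm38 (GENCODE M21), Igll1 lies on chromosome 16 from 16860671 to 16863985 and Vpreb1 from 16868403 to 16870843, both on the minus strand, with 4417 bases between them. Vpreb2 lies on the plus strand of the same chromosome, from 17980428 to 17981273. Dntt lies on chromosome 19 (41029275 to 41059525), and Rag1 (101638282 to 101649501) and Rag2 (101624718 to 101632529) are neighbours on opposite strands of chromosome 2. Vpreb3, which was not in the rule, lies on chromosome 10 (75943057 to 75949657). The transcripts of the 3 surrogate light chain genes were high together in resting members and low together in cycling ones. All 3 are genes of the rule, so this is a description only. Their promoters are printed for that pattern, and because the E-box CAGGTG is a motif that E2A proteins are known to bind. Both strands were searched, and on the opposite strand the motif reads as the letters CACCTG. They are the RefSeq windows of 300 bases on GRCm38.p6, 250 bases before the annotated start and 50 after it, written along the gene's strand with the E-box in capitals: Igll1 chr16:16863936-16864235 (minus strand), Vpreb1 chr16:16869206-16869505 (minus strand) and Vpreb2 chr16:17980315-17980614 (plus strand).
Igll1: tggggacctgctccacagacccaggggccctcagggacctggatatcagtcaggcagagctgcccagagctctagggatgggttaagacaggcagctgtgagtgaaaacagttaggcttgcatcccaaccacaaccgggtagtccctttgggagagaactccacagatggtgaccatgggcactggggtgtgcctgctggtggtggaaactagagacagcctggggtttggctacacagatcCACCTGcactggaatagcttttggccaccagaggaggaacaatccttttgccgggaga
Vpreb1: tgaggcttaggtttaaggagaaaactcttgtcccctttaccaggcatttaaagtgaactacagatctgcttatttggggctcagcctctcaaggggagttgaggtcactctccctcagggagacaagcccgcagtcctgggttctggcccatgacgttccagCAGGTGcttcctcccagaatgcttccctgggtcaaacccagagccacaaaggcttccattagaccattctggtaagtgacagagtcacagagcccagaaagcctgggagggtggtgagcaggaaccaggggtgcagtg
Vpreb2: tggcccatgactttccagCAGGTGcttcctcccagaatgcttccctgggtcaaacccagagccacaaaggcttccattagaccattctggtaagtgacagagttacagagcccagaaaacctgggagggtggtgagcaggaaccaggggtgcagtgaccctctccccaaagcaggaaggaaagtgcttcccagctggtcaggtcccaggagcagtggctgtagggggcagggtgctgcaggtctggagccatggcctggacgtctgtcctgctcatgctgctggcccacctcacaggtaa
The RefSeq starts of Vpreb1 and Vpreb2 lie inside the GENCODE genes given above, so distances from the start depend on the annotation. Each window holds the E-box 1 time, with its first base at position -8 from the annotated start in Igll1, -88 in Vpreb1 and -232 in Vpreb2. In Vpreb1 and Vpreb2 it stands in a stretch that is nearly the same in both windows. Of all 32851 RefSeq promoter windows of the same length, 20.2% hold it, so a match describes these windows only. A second motif of B cell factors, CCCNNGGG, whose opposite strand reads the same, was searched as well. It occurs 1 time in the Igll1 window, with its first base at -231, was not found in those of Vpreb1 and Vpreb2, and is held by 13.7% of all promoter windows. The transcripts of Vpreb1 and Vpreb2 are 96.5% identical over their alignment, so reads of the pair could have been split or dropped by the counting and their separate levels are uncertain.

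Members made up 2.25% of the filtered cells in the standard sham library (95% interval 1.88 to 2.67, Clopper-Pearson) and 1.29% at 14 dpi (1.08 to 1.52). In the ActD-based sham library the 8 members were 0.363% (0.157 to 0.714). Both of these sham shares came from uninjured cords, and their intervals did not overlap. These orders depended on the denominator. Of cells with a Cd79a UMI, members were 9.52% (8.01 to 11.2) in the standard sham library and 14.7% (12.5 to 17.1) at 14 dpi. In the ActD-based sham library they were 7.41% (3.25 to 14.1) of such cells, and the sham intervals overlapped. At 3 dpi, 0 of 9528 cells were members (interval 0 to 0.0387%), although 360 cells of that library had a Cd79a UMI and 65 were Ighd-positive B cells. All intervals here cover counting error only, not the difference between mice or cords. Of the 8 members of the ActD-based sham library, 4 were cycling, Vpreb1 was detected in 5, Rag1 in 6 and Dntt in 0.

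The threshold of 2 precursor genes divided a continuous range. In the standard sham library 163 Cd79a-positive cells had exactly 1 of the 6 genes and stayed outside, 46 had exactly 2 and 83 had 3 or more; at 14 dpi the numbers were 98, 54 and 86. The single gene of the cells just outside was Rag1 in 121 of 163 and in 70 of 98. Vpreb3, a gene of B cell precursors that the rule did not use, stood at 2958 CPM (UMIs of the gene per 1000000 UMIs of the summed cells) just outside, 2462 just inside and 2641 among cells with 3 or more genes in the standard sham library, and at 3574, 2776 and 2809 at 14 dpi. Igkc, the kappa light chain constant gene, was lower at each of the same steps, from 4422 to 2042 and 726 in the standard sham library and from 3053 to 1175 and 181 at 14 dpi. The cells just outside thus carried more light chain transcript and no less Vpreb3. The requirement for no UMI of Cd3e, Csf1r and Csf3r removed a further 68 and 96 cells. Of the removed cells, 32 and 53 had at most 1 UMI of each of these genes.

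Cycling members were the deeper cells. The median was 16122 UMIs per cell in cycling and 5080.5 in resting members of the standard sham library, and 11525 and 3483 at 14 dpi. Ighd-positive B cells had medians of 3864 and 3398 UMIs in these libraries. Levels are therefore given as CPM, a share of the UMIs of the cell group. In the deeper cycling members a lower share need not mean fewer UMIs per cell. Shares of cells with a UMI rise with depth, and they are given as counted unless they are said to be after thinning each cell to 1000 UMIs. The sex of the members differed between the libraries. By Xist and 4 Y-linked genes, 117 of 124 members with a call were female in the standard sham library (94.4%, 88.7 to 97.7) and 90 of 95 were male at 14 dpi (94.7%, 88.1 to 98.3). Among microglia of the same libraries 63.0% and 53.1% were female, so the members came mostly from mice of 1 sex while the microglia came from both. The Ighd-positive B cells leaned the same way, 91.6% female in the standard sham library and 80.0% male at 14 dpi. All 8 members of the ActD-based sham library were female. Both libraries had 23 barcode sequences in common, and none belonged to a member.

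The label was checked on genes outside the rule. A UMI of Vpreb3 was present in 100% and 100% of cycling and resting members in the standard sham library and 98.6% and 100% at 14 dpi, without thinning. After thinning to 1000 UMIs the shares were 92.7% and 98.6% in the standard sham library and 84.1% and 95.8% at 14 dpi, against 4.45% and 1.27% of microglia. Kit, a receptor of early pro-B cells, was rare without thinning, at 5.45% and 10.8% of cycling and resting members in the standard sham library and 11.6% and 11.3% at 14 dpi, with microglia at 1.64% and 1.65%. Il7r, the receptor for the cytokine that precursors need, was detected without thinning in 83.6% and 64.9% of cycling and resting members in the standard sham library and 88.4% and 60.6% at 14 dpi. Thinned, the shares were 20% and 27.4% in the standard sham library and 27.5% and 32.4% at 14 dpi, with microglia at 3.98% and 1.65%. The order of the states in the shares of Il7r was turned by thinning, and none is read from it. Of these 3 genes, Vpreb3 was found in nearly all members and Kit in few. Flt3, also a pro-B cell marker, had at most 3 UMIs in any state of members with or without a Dntt UMI. Cd24a, a pre-B cell marker, stood at 939 CPM in resting members and 557 in Ighd-positive B cells of the standard sham library. At 14 dpi it stood at 511 and 538, so there it did not set resting members apart from those B cells.

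Other cell types were followed with fixed marker lists. Of 11 T cell markers, 7 were at 0 in each state of the standard sham library, Cd3d, Cd3e and Cd3g among them (Cd3e was barred by the rule), and the list summed to 31.6 and 74.3 CPM, led by Lat, against 34.6 and 51.1 at 14 dpi. Of 11 erythroid markers, 8 were at 0 in both states of both libraries, Alas2 and Klf1 included, and Car2 led the list. The 7 NK cell markers summed to at most 62.1. The plasma cell list summed to 1636 and 1928 in resting members, led by Mzb1 (1128 and 1500.4), a chaperone also made by B cell precursors, with Tnfrsf17 at 0 in both. The plasmacytoid dendritic cell list of 12 genes was led by Tcf4 and Ly6d, which B lineage cells also express. It summed to 1433 and 1924 CPM in resting members, where all 12 had a UMI in both libraries. In cycling members it summed to 255 and 355, with 4 and 6 genes at 0. Ighd-positive B cells had 2547 and 3297. Microglia had 1640 and 1585, also with a UMI of all 12. The source of these UMIs was not tested.

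Microglia markers, 14 in all with Csf1r barred by the rule, summed to 489 CPM in resting members of the standard sham library and 1069.7 at 14 dpi, against 33476 and 39397 in microglia. The level was higher at 14 dpi in resting and cycling members and in Ighd-positive B cells (668 and 1181) alike. Neutrophil markers (12) summed to 678 and 1062 in resting members, led by S100a9. Monocyte and macrophage markers (10) summed to 179.7 and 413, led by Lyz2. Myeloid progenitor markers summed to 2162 in cycling members of the standard sham library, 369 in resting members and 4471 in its Ighd-positive B cells, against 336, 369 and 475 at 14 dpi. In the cycling members of the standard sham library a single barcode held 804 of the 815 UMIs of Elane, the neutrophil elastase gene, and 2257 UMIs of Elane, Prtn3, Mpo, Ctsg, Ms4a3, S100a8 and S100a9 together, against 26 in the next cell. A barcode of the same kind stood among the Ighd-positive B cells of that library, with 2915 UMIs of the 7 genes and 752 of the 765 of Elane. The Ighd-positive B cells at 14 dpi had a barcode with 2208 UMIs of the 7 genes, while Elane had 4 UMIs in all of them. Scrublet, a caller of doublets, marked 0 cycling members of either library and 3 and 4 of the Ighd-positive B cells.

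The genes of the rule are given as levels, without a test. Vpreb1, a part of the surrogate light chain, stood at 3729.9 CPM in resting and 726 in cycling members of the standard sham library, and at 3935 and 789 at 14 dpi. Igll1, its partner, stood at 1655 and 455 in the standard sham library and 2110.1 and 579.6 at 14 dpi. Vpreb2 stood at 579.7 and 49.1, and at 413 and 69.3. In both libraries all 3 were lower in cycling members. Dntt stood at 1155 in resting and 138 in cycling members of the standard sham library, and at 1081 and 359.5 at 14 dpi. Rag1 stood at 335 and 25.8, and at 927 and 51.5. Rag2 stood at 79.1 and 20.8, and at 314 and 45.9. The recombinase genes had the largest gap between the states of these 6 at 14 dpi, with log2 ratios of cycling over resting of -4.17 for Rag1 and -2.77 for Rag2, while in the standard sham library Rag1 (-3.70) and Vpreb2 (-3.56) did. These values rest on cells chosen for at least 2 of the same genes.

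Vpreb3 showed the same order without having been used. Vpreb3 had 1765 CPM in cycling members and 4939.7 in resting members of the standard sham library, and 2011 and 5859 at 14 dpi, with log2 ratios of -1.49 (-1.57 to -1.40) and -1.54 (-1.64 to -1.45), intervals being exact conditional ones for counts. Ighd-positive B cells had 1044 and 1373 and microglia 101 and 29.7. It was therefore highest in resting members of each library, intermediate in cycling members and lowest of these B lineage groups in Ighd-positive B cells.

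**Figure D1:**
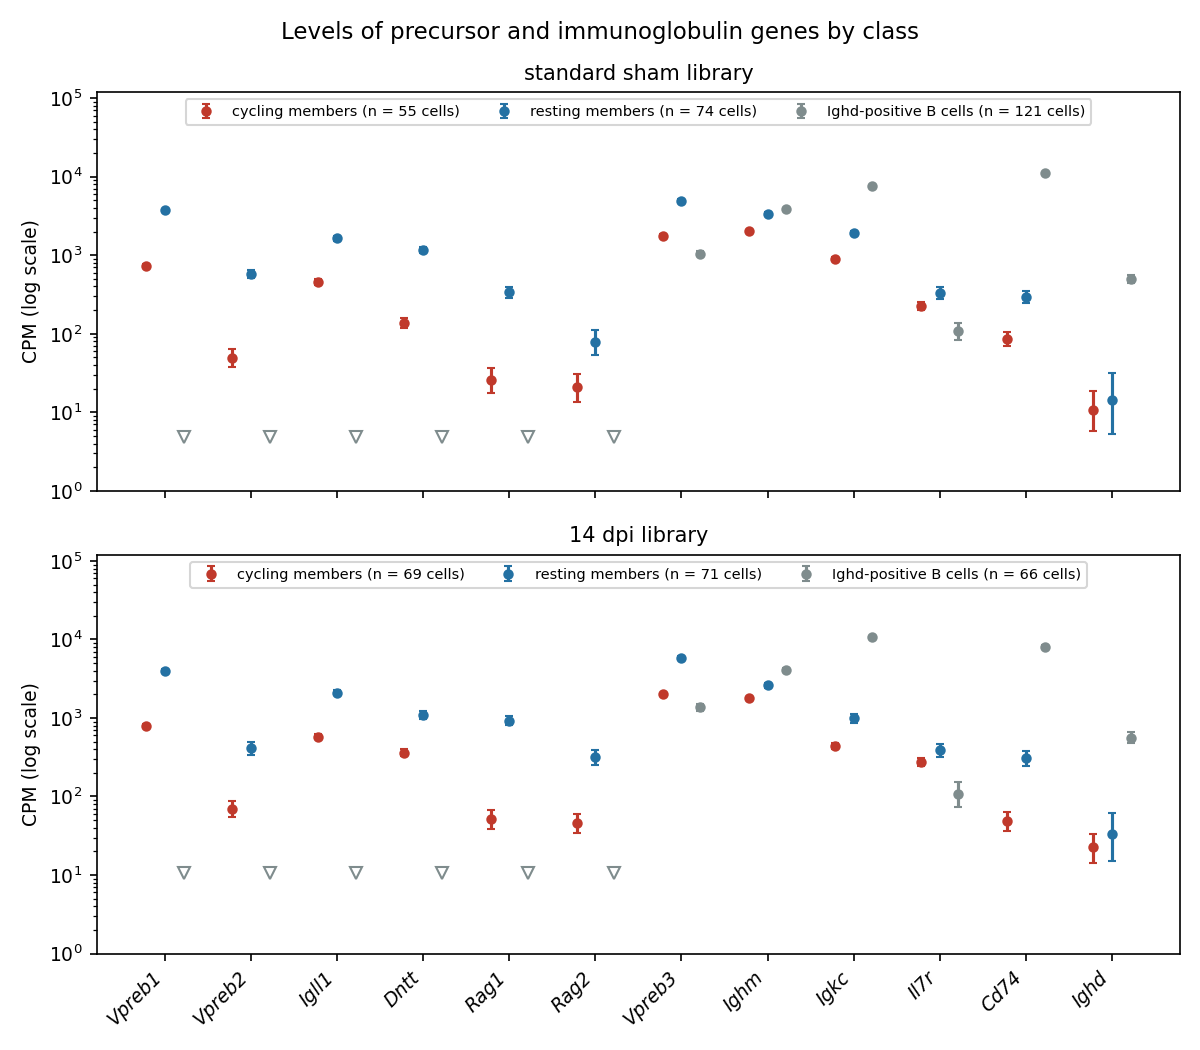
Levels of precursor and B lineage genes (CPM, log axis) in cycling and resting members and Ighd-positive B cells of the standard sham and 14 dpi libraries, with 95% counting intervals; an open triangle marks the level of 3 UMIs for a group with none, here the 6 rule genes in B cells chosen to lack them. Resting members had the highest Vpreb3 level in both libraries, 4939.7 and 5859, and cycling members stood below them.

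Cycling members were 55 of 129 in the standard sham library (42.6%, 34.0 to 51.6) and 69 of 140 at 14 dpi (49.3%, 40.7 to 57.9), and the intervals overlapped. The number of the 5 cycling genes detected fell into separate groups in both libraries: 31 cells had none, 34 had 1, 9 had 2, 1 had 3, 8 had 4 and 46 had all 5 in the standard sham library, and 44, 20, 7, 4, 14 and 51 at 14 dpi. Few cells therefore lay near the threshold of 3. With both the member rule and the cycling rule applied to cells thinned to 3000 UMIs, the cycling share was 33.3% and 46.8%.

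Since the states were set by 5 cell cycle genes, the genes of division are a description of that choice. Of 6972 genes that reached 20 UMIs over both cell groups, 12.9% were at least 2-fold higher and 19.4% at least 2-fold lower in cycling members of the standard sham library; of 6518 at 14 dpi, 14.4% and 20.5%. In both libraries together, 9.05% of 6220 shared genes were higher and 11.8% lower. The median log2 ratio of all genes was -0.18 and -0.18, and with TMM scaling (edgeR) -0.02 and 0.09. Under that scaling the split of 900 higher and 1355 lower genes in the standard sham library became 1110 and 1059, and the split of 940 and 1338 at 14 dpi became 1253 and 864, so the balance of higher and lower genes depends on the scaling.

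List medians, here and below, are over the genes measured in that library. All 27 mitosis genes were at least 2-fold higher in cycling members of both libraries (median log2 ratio 4.85 and 5.27). Ube2c, which serves the ubiquitin ligase of mitotic exit, stood at 849 against 9.58 CPM in the standard sham library and 769.6 against 7.30 at 14 dpi. Tpx2, a spindle assembly factor, stood at 222 against 2.40 and 331 against 3.65. Ccna2, the S phase and G2 cyclin, had no UMI in resting members and was at least 38.2-fold and 24.5-fold higher in cycling ones, counting a value of 0 as 3 UMIs. Hmmr, a spindle protein, was at least 27-fold and 23.9-fold higher, Kif15, a spindle motor, at least 20.6-fold and 19.9-fold, and Pbk, a mitotic kinase, at least 16.4-fold and 15.7-fold.

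Genes that copy DNA were higher by smaller factors. Of 26 DNA replication genes, 23 were at least 2-fold higher in both libraries (medians 2.41 and 1.99), the whole MCM helicase (Mcm2 to Mcm7) and Pcna among them. Of 18 genes of nucleotide synthesis, 16 were (medians 2.09 and 2.04), including Rrm1, Rrm2 and Tyms. The level of Rrm2 in cycling members was 290.3 CPM against 9.58 in resting members of the standard sham library, and 329.6 against 14.6 at 14 dpi. Of 12 measured replication-dependent histones, 9 were higher in both (medians 2.53 and 3.34). Hist1h3c had no UMI in resting members and was at least 34.7-fold and 63.4-fold higher. Most histone transcripts of this kind lack a poly(A) tail, so the counts hold only the part that was captured.

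Among 18 G1 cyclins, their kinases and inhibitors, 6 were at least 2-fold higher in both libraries (Ccnd3, Cdk4, Ccne2, Cdk2, E2f1 and E2f8) and 3 lower (Cdkn1b, Btg1 and Btg2). Ccnd3 stood at 531 CPM in cycling members and 204 in resting members of the standard sham library, and at 761 and 274 at 14 dpi, with log2 ratios of 1.38 (1.05 to 1.73) and 1.48 (1.13 to 1.84); it encodes cyclin D3, the D cyclin known for pre-B cell expansion. Cdkn1b had 82.4 CPM in cycling members and 347 in resting members of the standard sham library, and 107 and 383 at 14 dpi; it encodes the inhibitor p27. Of 13 glycolysis genes, 5 were higher (Tpi1, Gapdh, Pgk1, Ldha and Slc16a1) and Hk1 was lower, with medians of 0.64 and 0.42. Of 8 heat shock genes, 3 were higher (Hsp90aa1, Hspe1 and Hspd1; medians 1.0 and 1.07).

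**Figure D2:**
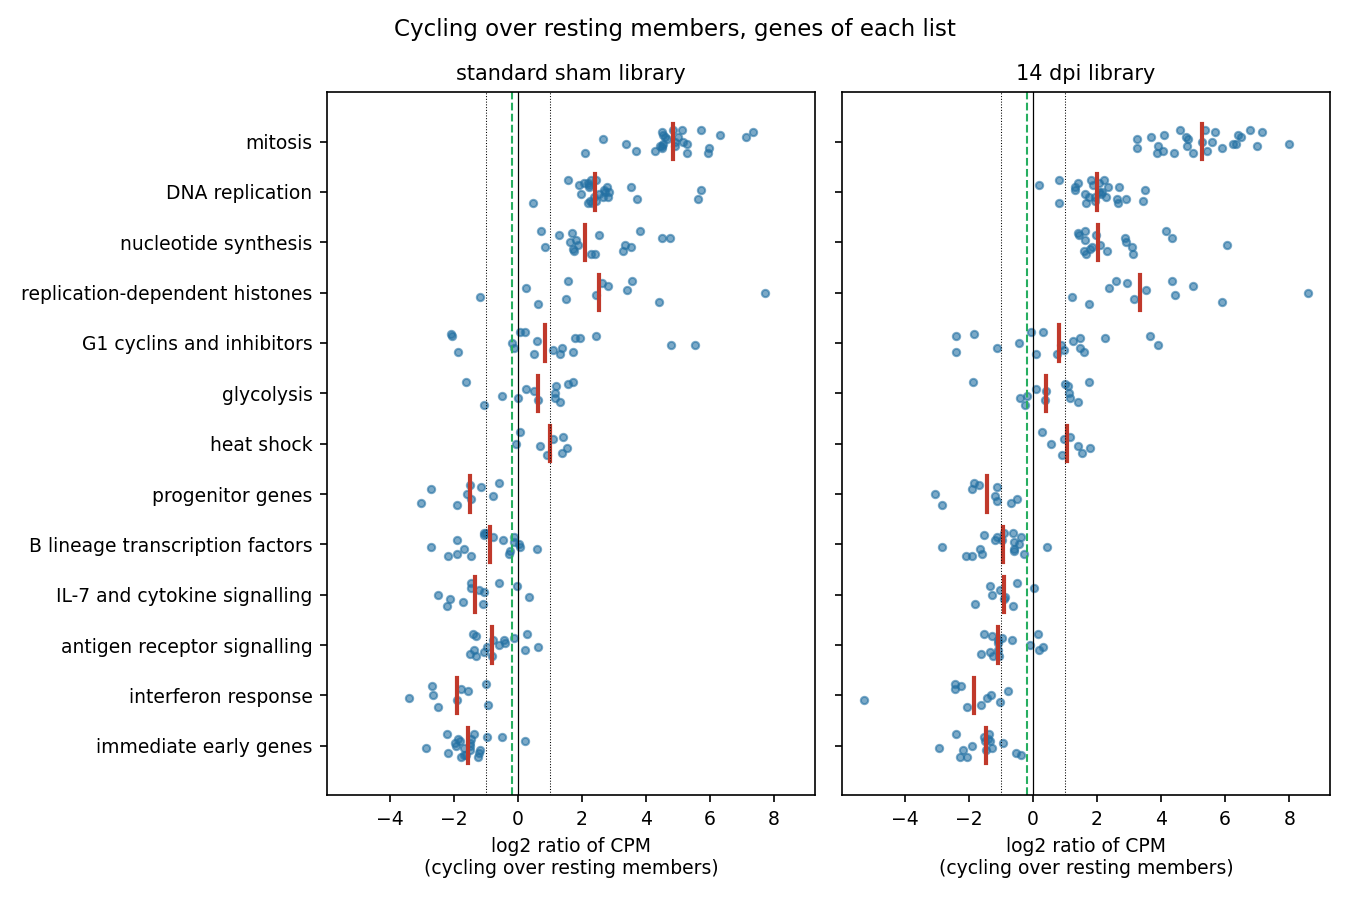
Log2 ratio of cycling over resting members for the genes of each list in the standard sham and 14 dpi libraries, a point per gene, the red bar being the list median, the dashed green line the median of all genes and the dotted lines 2-fold. Among lists with more than 1 measured gene, the median of mitosis genes is the highest in both libraries, at 4.85 and 5.27. Progenitor genes sit below 0.

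B lineage, antigen presentation and response genes had lower list medians in cycling members. These are ratios of CPM, and cycling members had more UMIs per cell. Spib, counted as lower, had 145 UMIs in 55 cycling and 105 in 74 resting members of the standard sham library. At 14 dpi Spib had 63 in 69 and 46 in 71. Erg had 18 and 41 UMIs in these cells of the standard sham library and 25 and 46 at 14 dpi. UMIs per cell were not compared for the lists. Of 18 B lineage transcription factors, 7 were at least 2-fold lower in both libraries and none higher (medians -0.87 and -0.93): Ebf1, Foxo1, Spib, Lef1, Sox4, Erg and Tcf4. The level of Ebf1 in cycling members was 1365 CPM against 4393 in resting members of the standard sham library, and 1439 against 4490.4 at 14 dpi, with log2 ratios of -1.69 (-1.78 to -1.59) and -1.64 (-1.75 to -1.53); Ebf1 is a pioneer factor of the B lineage. Foxo1 stood at 54.9 CPM in cycling members and 252 in resting members of the standard sham library, and at 52.4 and 223 at 14 dpi; Foxo1 is a factor known to drive the recombinase genes. Pax5 and the other members of the list did not differ 2-fold in both.

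Of 9 progenitor genes, 6 were lower in both (Sox4, Erg, Lef1, Ly6d, Tnfrsf19 and Gfra2; medians -1.5 and -1.43), and Sox4, Erg and Lef1 stand in both lists. Erg had 15.0 CPM in cycling members and 98.2 in resting members of the standard sham library, and 23.4 and 168 at 14 dpi. Of 9 genes of IL-7 and cytokine signalling, 4 were lower (Jak1, Mcl1, Bcl2l1 and Crlf2; medians -1.34 and -0.89). The level of Il7r in cycling members was 224 CPM against 333 in resting members of the standard sham library, and 277 against 391 at 14 dpi, with log2 ratios of -0.57 (-0.87 to -0.27) and -0.50 (-0.82 to -0.16), less than 2-fold apart. Of 15 antigen receptor signalling genes, 5 were lower (Cd79b, Blnk and Pik3cd among them; medians -0.79 and -1.07). Among 7 genes for joining cut DNA ends, Xrcc5 was higher and Xrcc6 and Lig4 were lower.

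MHC class II genes were lower in 5 of 7 (medians -1.71 and -1.56), interferon response genes in 6 of 8 (medians -1.91 and -1.83) and immunoglobulin constant genes in 4 of 5 (Igkc, Iglc1, Iglc2 and Iglc3; medians -4.95 and -1.16). Igkc stood at 889 CPM in cycling members and 1919 in resting members of the standard sham library, and at 441 and 986 at 14 dpi. The level of Igkc in resting members was carried by part of the cells: per cell, the median was 841 CPM in cycling and 189 in resting members of the standard sham library and 305 and 0 at 14 dpi, the opposite order. Cd74 had 86.5 CPM in cycling members and 297 in resting members of the standard sham library, and 48.7 and 310.3 at 14 dpi; Cd74 encodes the invariant chain of MHC class II. A Cd74 UMI was present in 30 of 55 cycling and 14 of 74 resting members of the standard sham library and in 27 of 69 and 19 of 71 at 14 dpi, so that few resting cells carried its higher level. H2-Eb1, also counted as lower, was detected in 10 of 55 and 5 of 74, and in 23 of 69 and 6 of 71. H2-Ab1 had a higher level in cycling members, 122 against 105 CPM in the standard sham library and 131 against 102 at 14 dpi. Immediate early genes, which are switched on within minutes of a stimulus, cell handling included, were lower in 13 of 16 (medians -1.56 and -1.46), and in homing and retention genes Itga4 and Selplg were lower of 11. Cd24a, a surface glycoprotein of B cell precursors that stands in the homing list, went the other way and passed 2-fold only at 14 dpi. The level of Cd24a in cycling members was 1669 CPM against 939 in resting members of the standard sham library, and 1036 against 511 at 14 dpi, with log2 ratios of 0.83 (0.67 to 0.99) and 1.02 (0.76 to 1.28). Of 10 mature B cell genes, 4 were lower (Cd37, Ltb, Klf2 and Cd38).

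Outside the lists, the genes with the largest difference shared by both libraries included Kdm5b, a histone demethylase (-3.90 and -7.01), the selenoprotein genes Selenom (-3.74 and -4.01) and Selenop, Gimap6, Myo7a and Maf, all lower in cycling members.

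Resting members were compared with the Ighd-positive B cells of the same library, 121 in the standard sham library and 66 at 14 dpi, which had an Ighd UMI and none of the 6 precursor genes. The resting members are those of the comparison above, so a high level in them enters both, and the B cells were chosen by Ighd, so this contrast too is a description. Of 5931 and 4250 genes tested, 13.7% and 12.6% were at least 2-fold higher and 9.04% and 8.68% at least 2-fold lower in resting members, and in both libraries 6.59% of 4159 were higher and 4.86% lower. The median of all genes was 0.16 and 0.15. TMM scaling turned the split of 815 higher and 536 lower genes in the standard sham library to 627 and 652, and that of 535 and 369 at 14 dpi to 404 and 479, with medians of -0.01 and -0.04. Mature cells here included 12 and 10 cells that passed the cycling threshold.

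Resting members were higher in progenitor genes and in part of the B lineage factors. Of 9 progenitor genes, 8 were at least 2-fold higher in both libraries and Ly6d was lower (medians 2.28 and 2.46). These medians depend on who counts as a B cell: with at least 3 Ighd UMIs required they were 4.46 and 4.49, and a single Ighd UMI, as used here, was also present without thinning in 6.67% and 2.41% of microglia. Erg stood at 98.2 CPM in resting members and 0 in Ighd-positive B cells of the standard sham library, and at 168 and 0 at 14 dpi; Erg is an ETS factor of progenitors. Lef1 had 793 CPM in resting members and 17.8 in Ighd-positive B cells of the standard sham library, and 756 and 6.99 at 14 dpi; Lef1 is a partner of beta-catenin. Both were far lower in the Ighd-positive B cells than in resting members of each library. The level of Myb in resting members was 596 CPM against 144 in Ighd-positive B cells of the standard sham library, and 924 against 203 at 14 dpi; Myb is a factor of dividing progenitors. Il7r stood at 333 CPM in resting members and 107 in Ighd-positive B cells of the standard sham library, and at 391 and 108 at 14 dpi, with log2 ratios of 1.64 (1.21 to 2.08) and 1.85 (1.26 to 2.48). Both genes were lower in the Ighd-positive B cells of both libraries.

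Of 18 B lineage factors, 6 were higher (Ebf1, Lef1, Sox4, Erg, Myb and Tcf4, of which 4 are also progenitor genes) and Ikzf3, a factor of later B cells, was lower (medians 0.37 and 0.69). Ebf1 had 4393 CPM in resting members and 1883 in Ighd-positive B cells of the standard sham library, and 4490.4 and 1212 at 14 dpi, with log2 ratios of 1.22 (1.12 to 1.33) and 1.89 (1.72 to 2.07). Pax5, the factor that keeps B cell identity, stood at 434 and 407 in the standard sham library and at 416 and 384 at 14 dpi, less than 2-fold apart. Xrcc6 and Lig4, 2 of 2 end joining genes measured in both libraries, were higher. In cytokine signalling Il7r and Bcl2l1 were higher and Il2rg and Bcl2 lower of 8, a reversal between the survival genes Bcl2l1 and Bcl2. The level of Bcl2 in resting members was 12 CPM against 60 in Ighd-positive B cells of the standard sham library, and 7.30 against 66.4 at 14 dpi. Bcl2l1 stood at 64.7 CPM in resting members and 13 in Ighd-positive B cells of the standard sham library, and at 69.4 and 17.5 at 14 dpi. In homing and retention, Itga4 and Selplg were higher and Ccr7, Cxcr5 and S1pr1 lower of 12.

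Outside the lists, Arpp21, a gene of lymphoid precursors, led the genes higher in resting members. Arpp21 had 314 CPM in resting members and 1.62 in Ighd-positive B cells of the standard sham library, and 343 and 0 at 14 dpi. Adgrg1, an adhesion receptor, Impdh1, of guanine nucleotide synthesis, and Selenom followed, with log2 ratios of 4.51 and 4.97, 3.25 and 4.41, and 5.59 and 4.92. Mzb1 and Slamf7 of the plasma cell list were also higher. The level of Mzb1 in resting members was 1128 CPM against 263 in Ighd-positive B cells of the standard sham library, and 1500.4 against 370.2 at 14 dpi. Cdk6 and Cdkn1b were higher of 12 G1 genes, and 17 of 18 mitosis genes, 5 of 10 histones, 2 of 6 nucleotide synthesis genes and 1 of 16 DNA replication genes were lower, the comparison cells being free to cycle while the members were chosen not to.

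Mature B cell genes were lower in 12 of 18 (medians -1.95 and -2.32) and none was higher. Ms4a1 stood at 52.7 CPM in resting members and 745 in Ighd-positive B cells of the standard sham library, and at 18.3 and 1271 at 14 dpi, with log2 ratios of -3.82 (-4.51 to -3.21) and -6.12 (-7.75 to -4.89); it encodes CD20. Fcer2a, which encodes CD23 of follicular B cells, had no UMI in resting members and was at least 21-fold and 13.1-fold lower than in mature cells. Bank1 had 14.4 CPM in resting members and 241 in Ighd-positive B cells of the standard sham library, and 14.6 and 419 at 14 dpi; Bank1 is an adaptor of the antigen receptor. Fcmr, the IgM Fc receptor, stood at 14.4 and 653, and at 32.9 and 807.

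MHC class II genes, of antigen presentation, were lower in resting members. Of 9, 7 were lower in both libraries (medians -4.38 and -3.98), and the list summed to 711 CPM in resting members against 19244 in mature cells of the standard sham library and to 879.8 against 13985 at 14 dpi. With at least 3 Ighd UMIs required of the B cells, the median at 14 dpi was -4.76. The level of Cd74 in resting members was 297 CPM against 11012 in Ighd-positive B cells of the standard sham library, and 310.3 against 8044 at 14 dpi, with log2 ratios of -5.21 (-5.48 to -4.96) and -4.70 (-5.03 to -4.38). H2-Aa stood at 33.5 CPM in resting members and 2662 in Ighd-positive B cells of the standard sham library, and at 98.6 and 1904 at 14 dpi. Ciita had 0 CPM in resting members and 97.2 in Ighd-positive B cells of the standard sham library, and 0 and 119 at 14 dpi; it is the activator of these genes. Antigen receptor signalling was divided, with Blnk and Pik3cd higher and Ptpn6, Cd22, Bank1 and Rasgrp3 lower of 18, and the list's medians were -0.07 and -0.38. Immunoglobulin constant genes were lower in 4 of 5 (Igkc, Iglc1, Iglc2 and Iglc3; medians -1.97 and -1.97). Of 9 interferon response genes Rtp4 was higher and Ly6a lower, and of 15 immediate early genes Jun was higher and Junb and Klf6 lower. No gene of glycolysis (10) or heat shock (8) differed 2-fold in both libraries. Neutrophil markers were lower in 2 of 6 in the standard sham library and 7 of 7 at 14 dpi (medians -0.24 and -3.23). The Ighd-positive B cells held 1466 and 10457 CPM of that list, which at 14 dpi came from 2994 UMIs. A single barcode of these cells at 14 dpi, described above, held 2208 UMIs of 7 genes that include S100a8 and S100a9. The next cell held 19. The part of neutrophil transcripts in the other differences from these B cells was not tested.

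**Figure D3:**
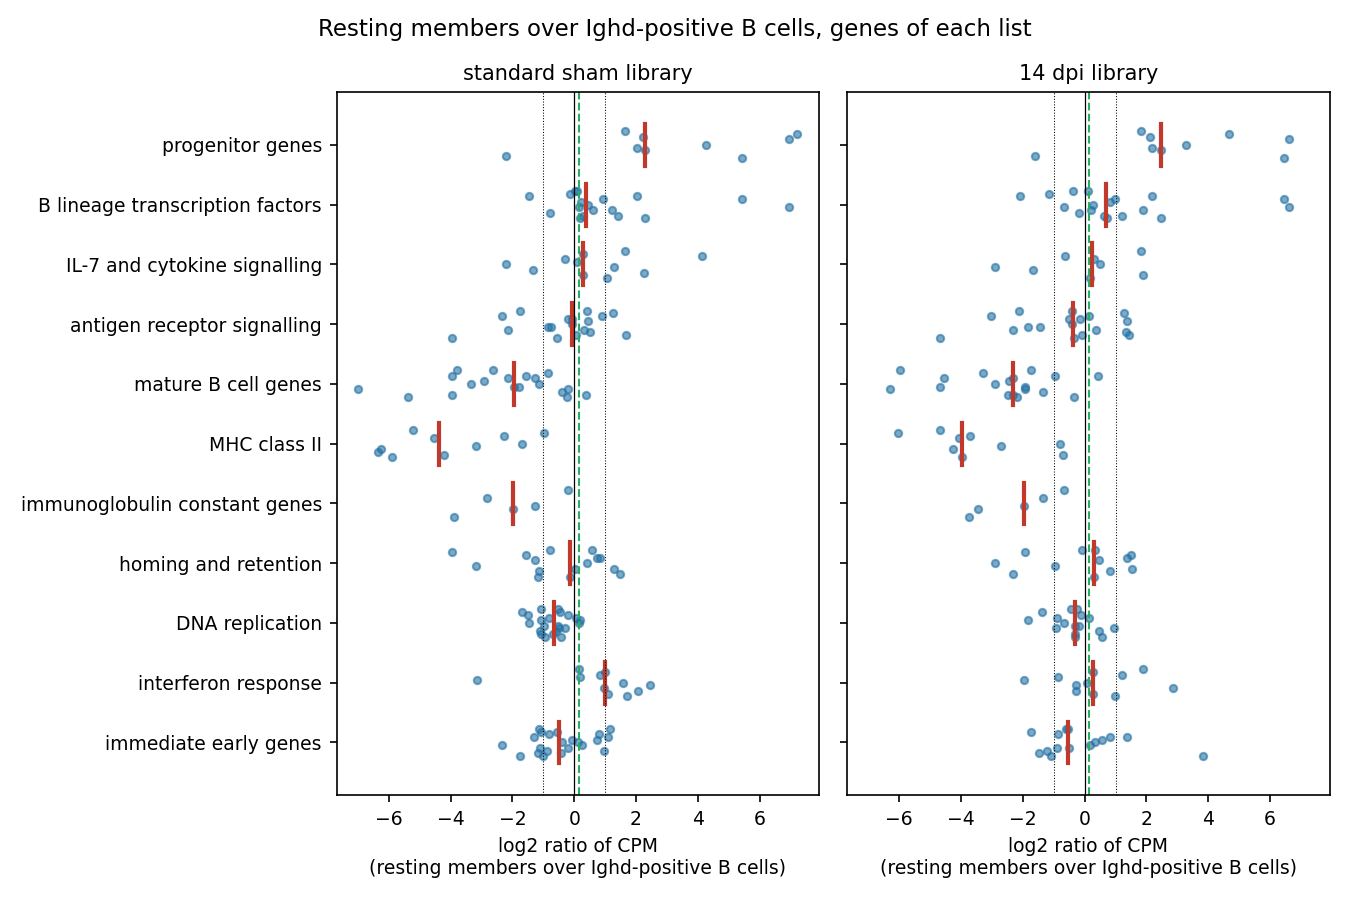
Log2 ratio of resting members over Ighd-positive B cells for the genes of each list in the standard sham and 14 dpi libraries, a point per gene, the red bar being the list median, the dashed green line the median of all genes and the dotted lines 2-fold. The median of progenitor genes sits above 0, at 2.28 and 2.46, and that of MHC class II genes below it, at -4.38 and -3.98.

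Immunoglobulin constant transcripts were counted in single cells. After thinning every cell to 1000 UMIs, Ighm, the heavy chain constant gene of IgM, was detected in 94.5% (84.9 to 98.9) of cycling and 95.9% (88.5 to 99.1) of resting members of the standard sham library and in 78.3% (66.7 to 87.3) and 85.9% (75.6 to 93.0) at 14 dpi, against 25.3% and 10.2% of microglia, a cell type that should lack them and gives the background (median depths 6833 and 8726 UMIs before thinning). Ighd was found in 0% and 0% and in 1.45% and 2.82% of members, with microglia at 1.29% and 0.127%. Counting 0 as 3 cells, the 0 of 55 and 0 of 73 cells allow up to 5.45% and 4.11% of cells with a UMI at that depth. Without thinning, an Ighd UMI was present in 20% and 8.11% of cycling and resting members of the standard sham library and in 24.6% and 11.3% at 14 dpi, with microglia at 6.67% and 2.41%. A single resting member of the standard sham library was too shallow to be thinned.

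Igkc was detected in 60% (45.9 to 73.0) of cycling and 46.6% (34.8 to 58.6) of resting members of the standard sham library and in 37.7% (26.3 to 50.2) and 36.6% (25.5 to 48.9) at 14 dpi, against 91.7% and 93.9% of Ighd-positive B cells and 9.02% and 5.08% of microglia. The kappa transcript was thus present in members above the microglial share but in fewer of them than of mature cells, in both libraries. Lambda constant genes (Iglc1, Iglc2 and Iglc3 together) were detected in 0% (0 of 55 cells) and 9.59% (3.94 to 18.8) and in 1.45% (0.0367 to 7.81) and 18.3% (10.1 to 29.3). The shares were 67.8% and 80.3% of mature cells and 3.98% and 0.508% of microglia. Counting 0 as 3 cells, the 0 of 55 cells allow up to 5.45% with a UMI at that depth. The lambda share was not told from the microglial value by its interval in cycling members of either library, nor in resting members of the standard sham library. Without thinning, lambda genes were in 10.9% of cycling members of the standard sham library and 2.90% at 14 dpi. The unthinned shares of Igkc were 92.7% and 56.8% in the standard sham library and 65.2% and 49.3% at 14 dpi.

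**Figure D4:**
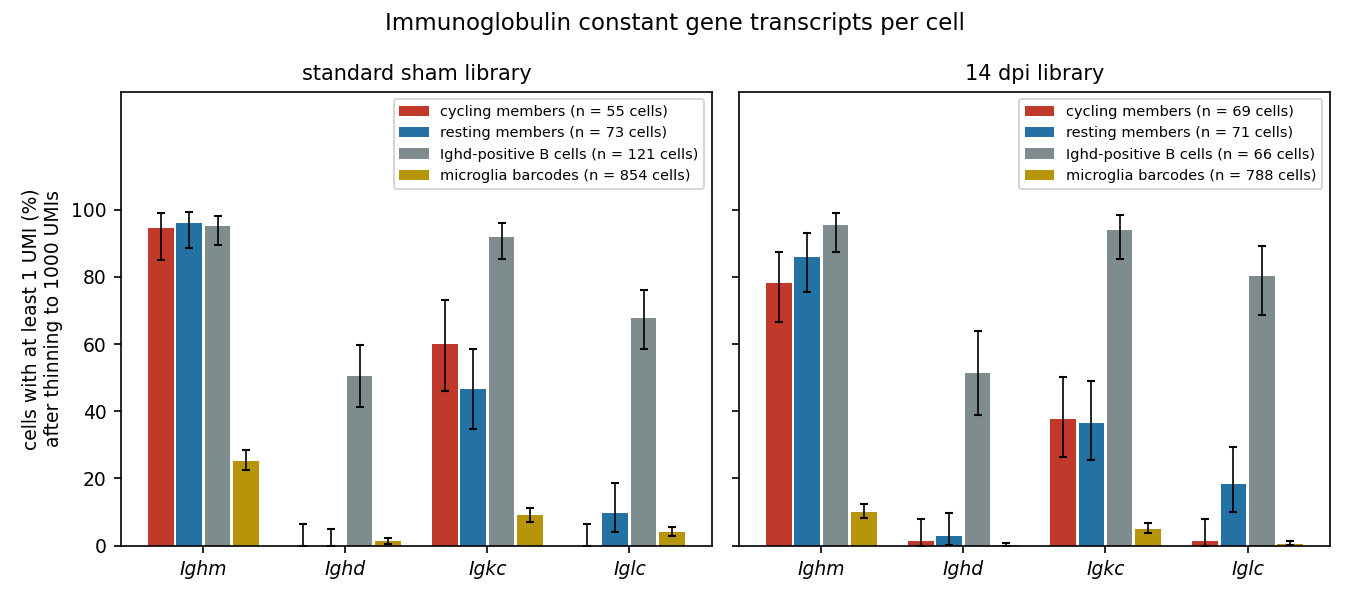
Share of cells with a UMI of each immunoglobulin constant gene after thinning to 1000 UMIs per cell, in cycling and resting members, Ighd-positive B cells and microglia of each library, with 95% Clopper-Pearson bars. Ighm was near the level of mature cells in members of the standard sham library (95.9% against 95%), Igkc lay between microglia and mature cells, and lambda was low.

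Members were also described by whether they had a Dntt UMI, a division chosen after its values were seen and on a gene of the rule. Among resting members 49 of 74 (66.2%) and 44 of 71 (62.0%) had one, and among cycling members 10 of 55 (18.2%, 9.08 to 30.9) and 26 of 69 (37.7%). Resting cells with Dntt were the deeper ones, with medians of 5379 and 3886.5 UMIs against 4250 and 2727. Of 3316 and 2421 genes tested in resting cells, 12.6% and 12% were at least 2-fold higher with Dntt and 8.14% and 8.67% lower, and in both libraries 4.86% of 2283 were higher and 3.68% lower. In cycling cells, 11.1% of 5768 and 7.17% of 5596 were higher and 9.62% and 3.56% lower, and in both libraries 2.25% of 5197 and 1.14%.

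Resting cells with Dntt had less light chain and heavy chain transcript. Igkc stood at 668 against 5397 CPM in the standard sham library and 232 against 2946 at 14 dpi. Ighm stood at 2690.5 against 5207 CPM in the standard sham library and 1546 against 5327 at 14 dpi. Of 5 immunoglobulin constant genes, Igkc, Iglc1 and Iglc2 were at least 2-fold lower in both libraries. Cells without Dntt carried more kappa transcript in both libraries, also among cycling cells, where Igkc stood at 378 against 949.7 CPM in the standard sham library and 73.4 against 603 at 14 dpi.

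The factors divided too. Of 17 B lineage factors measured in resting cells, Lef1 and Erg were higher with Dntt and Ikzf1, Bach2, Spib and Irf4 lower in both libraries. Lef1 stood at 1013 against 181 CPM in the standard sham library and 939.9 against 276 at 14 dpi. Erg stood at 127 against 18.1 CPM in the standard sham library and 222 against 26.3 at 14 dpi. Bach2, a repressor that acts at the pre-B cell checkpoint, was lower with Dntt, at 189 against 724 CPM in the standard sham library and 126 against 710.3 at 14 dpi. Spib, an ETS factor of later B cells, had 149.8 against 534 CPM in the standard sham library and 75.8 against 408 at 14 dpi. Lef1 was on the side of Dntt in both states, and in cycling cells so were Foxo1 and Tcf4, while Ikzf3, Spib and Irf4 were lower. Erg in cycling cells stood at 134 against 0.930 CPM in the standard sham library and 73.4 against 1.35 at 14 dpi, a gene left out of that count because its 17 and 1 UMIs in the standard sham library were together under the filter of 20. Arpp21 in resting cells stood at 427 against 0 CPM in the standard sham library and 455 against 52.6 at 14 dpi. Gfra2 was higher with Dntt in both states and Ralgps2, Cd38 and Cd72 lower. Kit, with few UMIs, stood at 26.1 against 9.06 CPM in the standard sham library and 50.5 against 0 at 14 dpi in resting cells. In cycling cells Kit stood at 15.8 against 0.930 CPM in the standard sham library and 33.6 against 0 at 14 dpi. In cycling cells of the standard sham library these were 2 UMIs against 1. The progenitor list as a whole was divided: of 9 genes in resting cells, Erg, Lef1 and Gfra2 were at least 2-fold higher with Dntt and Ly6d lower in both libraries (medians 0.09 and -0.09), and of 8 in cycling cells Lef1 and Gfra2 were higher and none lower. Il7r in resting cells stood at 231 against 616 CPM in the standard sham library and 334 against 539 at 14 dpi. Sox4 in resting cells stood at 1075 against 1648 CPM in the standard sham library and 743 against 789 at 14 dpi. Both had higher levels without Dntt, by 2-fold only for Il7r in the standard sham library. In cycling cells Cd24a stood at 622 against 1792 CPM in the standard sham library and 474 against 1284 at 14 dpi. Vpreb3 in resting cells differed less than 2-fold, at 5176 against 4283 CPM in the standard sham library and 6018 against 5446 at 14 dpi. Rag1 in resting cells did too, at 358 against 272 CPM in the standard sham library and 955 against 855 at 14 dpi. In cycling cells Rag1 was higher with Dntt, at 102 against 16.7 CPM in the standard sham library and 116 against 22.9 at 14 dpi. Rag1 is a gene of the rule, and cells without Dntt had to become members by the other genes of the rule, Rag1 among them. The levels of Rag1 in this division are therefore shaped by the choice of members and are a description only.

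**Figure D5:**
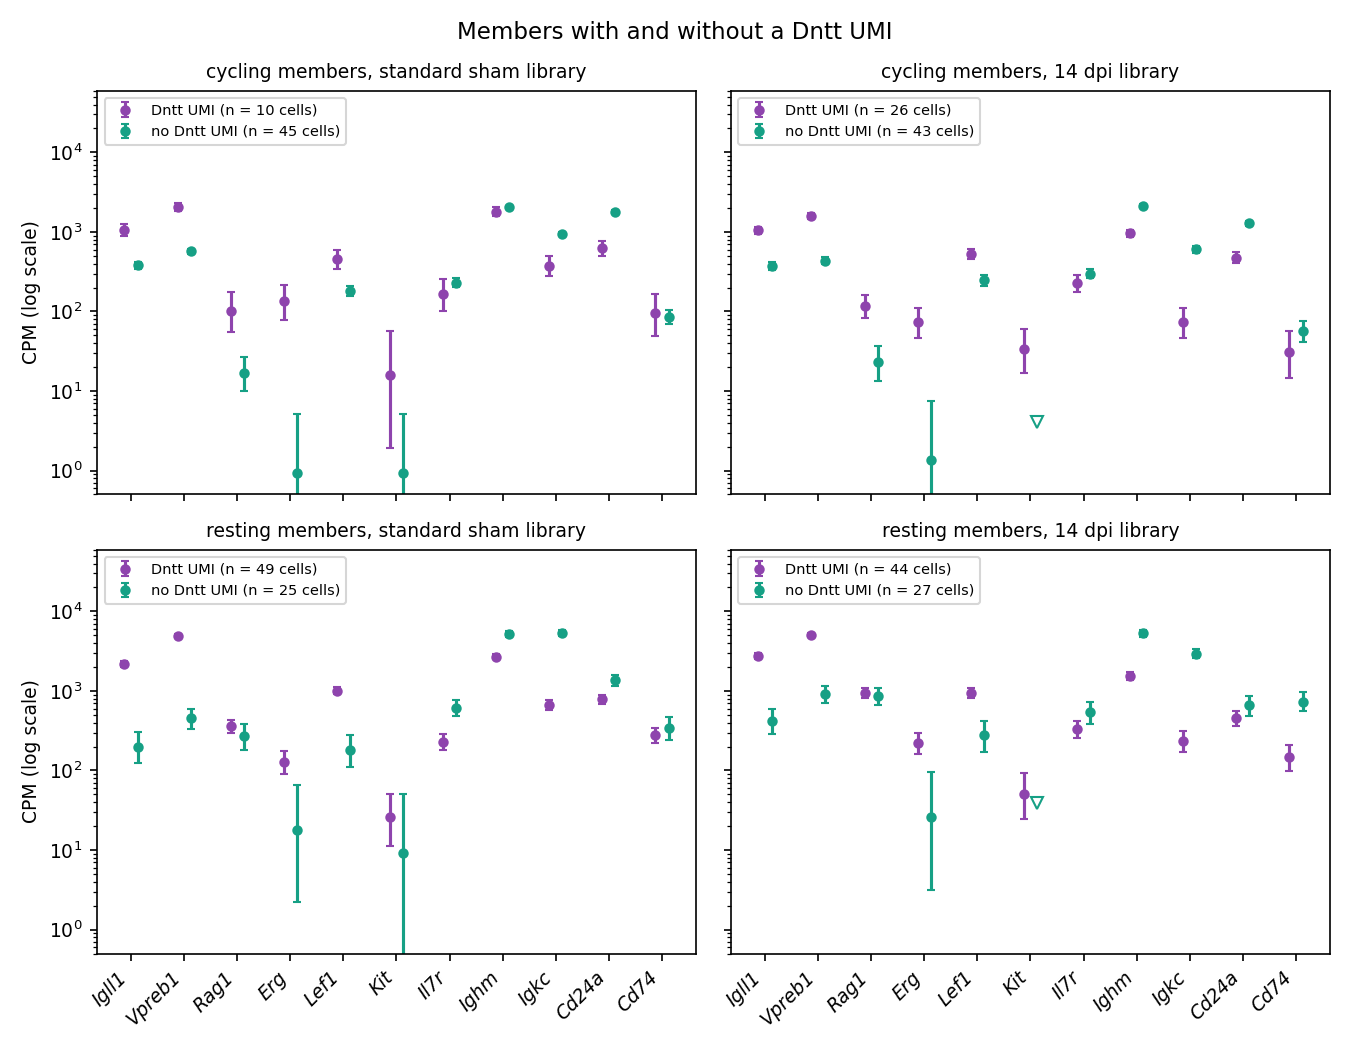
Levels (CPM, log axis) of selected genes in resting and cycling members with and without a Dntt UMI in each library, bars being 95% counting intervals and an open triangle the level of 3 UMIs for a group with none. Igkc was lower and Erg higher with Dntt, in resting members 668 against 5397 and 127 against 18.1 in the standard sham library.

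Between the 14 dpi and standard sham libraries, the values are set side by side, since injury, protocol, software release, library and the sex of the members cannot be told apart. In resting members 6.9% of 4929 genes were at least 2-fold higher at 14 dpi and 5.32% lower, in cycling members 4.78% of 7492 and 3.43%, and in Ighd-positive B cells 8.36% of 5333 and 7.82%. The medians of all genes were 0.09, 0.07 and 0.13. TMM scaling turned the splits from 340 higher and 262 lower to 195 and 383 in resting members, and from 358 and 257 to 276 and 310 in cycling ones, with medians of -0.09 and -0.01. Of 18 B lineage factors, 1 (Bcl11a) was higher and none lower in resting members (median -0.09), and 3 of 18 (Spib, Irf4 and Sox4) were lower in cycling ones (median -0.13), to be set beside the 6.9% and 3.43% of all genes given above. No DNA replication gene of 26 and no gene of nucleotide synthesis of 18 differed 2-fold in cycling members.

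Immediate early genes were lower at 14 dpi in nearly the whole list: 19 of 21 in resting members (median -2.17), 20 of 20 in cycling members (-2.03) and 16 of 21 in Ighd-positive B cells (-2.53). Jun, a subunit of AP-1, stood at 1677 CPM in resting members of the standard sham library and 299 at 14 dpi. Egr1 stood at 134 and 0. The list of 23 genes summed to 12670.2 in resting and 3923 in cycling members of the standard sham library and to 3286 and 904 at 14 dpi. In the uninjured cords of the ActD-based protocol it summed to 6037 in 4 resting and 746 in 4 cycling members, 3478 in 26 Ighd-positive B cells and 2013 in 340 microglia. In microglia it was 49111 in the standard sham library and 1444 at 14 dpi. The ActD-based sham and 14 dpi libraries were both below the standard sham library in each of these cell groups.

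Microglia markers were higher at 14 dpi in 5 of 7 measured in resting members (median 1.21), 7 of 7 in cycling members (1.56) and 5 of 7 in Ighd-positive B cells (1.14). Apoe, an abundant transcript of activated microglia and macrophages, stood at 47.9 and 2837 in resting members, 34.1 and 1437 in cycling members, 580.1 and 3238 in Ighd-positive B cells and 1571 and 69041 in microglia. C1qa stood at 57.5 and 256 in resting members, and at 7145 and 9884 in microglia. These genes were thus higher in B lineage cells of the library whose microglia had more of them, and whether the UMIs came from free RNA was not tested.

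Replication-dependent histones were at least 2-fold higher at 14 dpi in 8 of 12 in cycling members (median 1.28) and in 8 of 12 in Ighd-positive B cells (1.48), but in 1 of 9 in resting members, with 3 lower (-0.70). Hist1h3c stood at 249.6 in cycling members of the standard sham library and 695 at 14 dpi. In the Ighd-positive B cells its UMIs came from few cells, 81 UMIs from 10 of 121 cells in the standard sham library and 146 from 9 of 66 at 14 dpi, and 12 and 10 of these B cells passed the cycling threshold. The genes most reduced in cycling members at 14 dpi were Elane, Prtn3, Ctsg, Ms4a3 and Mpo, all granule or myeloid progenitor genes, the transcripts of the single barcode described above. Interferon response genes were at least 2-fold higher in 2 of 13 and lower in 1 in resting members, and higher in 3 of 8 in cycling ones (Isg15, Trim30a and Xaf1).

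Among the genes of B cell development, Rag1 in resting members was 335 in the standard sham library and 927 at 14 dpi, Rag2 79.1 and 314, and Dntt in cycling members 138 and 359.5, all genes of the rule. Outside it, Igkc was 1919 and 986 in resting and 889 and 441 in cycling members (log2 ratios -0.96 and -1.01). In microglia of these libraries it was 1541 and 74.6, and in Ighd-positive B cells 7517 and 10761. The level in microglia was thus also lower at 14 dpi, and that of B cells was not. The part of background UMIs in the members' values was not tested. Sox4 was 1227 and 756 in resting and 449 and 201 in cycling members. Cd24a was lower at 14 dpi in both states (-0.88 and -0.69) and not in Ighd-positive B cells (-0.05), a difference that was not tested.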

How the data were processed

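CD45+ spinal cord cells were captured in droplets, and the authors deposited a matrix of raw UMI counts per gene and barcode for each of 4 libraries, made with Cell Ranger on mm10 per the labels; the gene annotation release was not given in the sources used here. Barcodes were kept from 600 detected genes up and 10% mitochondrial UMIs down, without doublet removal. Counts were summed per library and cell group, scaled to CPM and compared as log2 ratios with exact conditional 95% intervals (SciPy 1.17.1), and 2-fold was the threshold for lists. List medians used genes that reached 20 UMIs over both groups, with 0.5 UMIs added. Shares of cells with an immunoglobulin, Vpreb3 or Il7r UMI were also taken after thinning to 1000 UMIs. Each group was 1 library, so no p-value was computed. The genes named were those of the rule, those of the lists (the most abundant, or known for a role in B cell development) and the 10 genes with the largest shared ratio in each direction. Members and lists were chosen with earlier results of these data known. The comparison code recovered planted changes in simulated data. Alternatives included TMM (edgeR 4.0.16), other count filters, rules and Scrublet (scanpy 1.11.5).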

Additional observations from a re-analysis of the deposited data

Results flagged for a closer look

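Pro-B and pre-B cells were also present in the ActD-based sham library, whose members were too few for the gene by gene comparisons: 8 of its 2203 filtered barcodes were members, 0.363% (0.157 to 0.714). Vpreb3 and Ighm were detected in all 8, Igkc in 7, Igll1 in 4 and Dntt in none.

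The linker histone gene Hist1h1c was lower in cycling than in resting members of the standard sham library (log2 ratio -1.19, interval -1.46 to -0.93) and higher at 14 dpi (1.23, 0.79 to 1.69). The difference between the libraries was not tested.

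Cd79b, a signalling chain of the antigen receptor, was higher in resting members than in Ighd-positive B cells of the standard sham library (0.41, 0.25 to 0.57) and lower at 14 dpi (-0.41, -0.59 to -0.22). Mcl1, a survival gene, went the same ways, 0.29 (0.02 to 0.56) and -0.64 (-0.98 to -0.31). Neither difference was tested.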

How the results depend on the processing

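No paired analysis was possible because each group was a single library. No list median or named ratio recomputed here changed direction under an alternative, but the median of all genes did: with TMM it went from -0.18 to 0.09 for cycling over resting at 14 dpi, from 0.16 and 0.15 to -0.01 and -0.04 for resting members over Ighd-positive B cells, and from 0.09 and 0.07 to -0.09 and -0.01 for resting and cycling members at 14 dpi over sham. For cycling over resting in the standard sham library it went from -0.18 to 0.01 with median-of-ratios factors, which left all but the last of the other medians on the side that TMM gave, and with at least 100 UMIs it was 0.11 and 0.09 in the standard sham and 14 dpi libraries. Of the summary values, 285 stayed within the counting error or 1.5-fold of the reported value and 71 did not. The share of members, 2.25% in the standard sham library and 1.29% at 14 dpi, became 1.45% and 0.791% with at least 3 precursor genes required, 5.09% and 2.19% with 1, 3.43% and 2.17% without the bar on Cd3e, Csf1r and Csf3r, and 2.81% and 1.77% with up to 1 UMI of each allowed (the last was chosen after seeing the data). Thinned to 3000 UMIs, the standard sham share was 1.84% and its cycling share 33.3%. Scrublet marked 4.59% and 8.70% of barcodes and 0 and 2 members.

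Counts of genes past 2-fold depended most on the count filter. Without a filter, cycling over resting gave 1457 higher and 3885 lower genes in the standard sham library and 1429 and 3968 at 14 dpi, and with at least 100 UMIs 371 and 296, and 365 and 244. Resting members over Ighd-positive B cells gave 3040 and 2305, and 2940 and 2167 without a filter, and 133 and 124, and 72 and 70 with at least 100 UMIs. Requiring 3 Ighd UMIs of the B cells left 351 and 225 lower genes and moved the progenitor medians from 2.28 to 4.46 and from 2.46 to 4.49 and the MHC class II median at 14 dpi from -3.98 to -4.76. The 14 dpi library over the standard sham library gave 2197 and 1276 in resting and 1750 and 1818 in cycling members without a filter, 17 and 42, and 62 and 54 with at least 100 UMIs, and 559 higher in cycling members from means of single-cell levels. TMM gave 864 lower genes for cycling over resting at 14 dpi and 195 higher for resting members at 14 dpi.

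The mitosis medians became 3.93 and 4.12 with 2 UMIs added, and in the standard sham library 5.35 from single-cell means and 4.36 with cycling set at 4 or more genes and resting at none. The DNA replication medians became 2.89 and 2.41 from single-cell means and 3.26 and 3.12 under the stricter states, and in the standard sham library 2.20 both with 2 UMIs added and with 3 precursor genes. With 3 precursor genes the mature B cell median at 14 dpi was -3.37.

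Shares of cells with an immunoglobulin UMI followed depth. In cycling and resting members, Ighm without thinning was in 100% and 100% in the standard sham library and 98.6% and 100% at 14 dpi. Thinned to 3000 UMIs, it was 100% in resting sham members and 98.5% and 100% at 14 dpi. At 2 or more UMIs it was 67.3% and 79.5%, and 56.5% and 60.6%. Igkc without thinning was in 92.7% of cycling sham members, and in 65.2% of cycling and 49.3% of resting members at 14 dpi. At 2 or more UMIs it was 38.2% and 32.9% in cycling and resting sham members and 20.3% in cycling members at 14 dpi. Lambda genes without thinning were in 10.9% of cycling sham members, and at 14 dpi in 0% of cycling members both thinned to 3000 UMIs and at 2 or more UMIs. The depth behind a single cell limits such shares, and 1 library per group leaves the spread between mice unmeasured. The cause of these changes was not tested.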

Other observations

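A leading Ighv segment, with at least 2 UMIs and more than any other, was found in 1 cycling and 1 resting member of the standard sham library and in 1 cycling and 0 resting members at 14 dpi. Among Ighd-positive B cells it was found in 7 and 1, each with a different gene. V segments are therefore given no further values.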
